A study of Mus musculus with 224 samples.

Results

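The interaction of ethanol vapor and ethanol drinking was measured in the medial prefrontal cortex (PFC) of mice as a difference of differences, that is, the CIE minus air difference in drinkers minus the CIE minus air difference in nondrinkers. It drew on all 47 PFC arrays and was formed for each of 45037 probesets of an Affymetrix mouse expression array. The series also holds 43 arrays of the central amygdala (CeA), 45 of the BNST (a nucleus of the stria terminalis), 42 of the hippocampus (HPC) and 47 of the nucleus accumbens (NAC). All mice were C57BL6/J males bought at 10 weeks of age, and all were injected with 1 mmol/kg pyrazole, an inhibitor of alcohol dehydrogenase, before time in a chamber for 16 h a day on 4 days of a cycle. The CIE Drinking group (12 arrays) breathed chronic intermittent ethanol vapor (CIE), received 1.6 g/kg ethanol with each pyrazole injection, and had 2 h sessions with 15% ethanol or water to choose from, first for 6 baseline weeks and then after the 72 h of abstinence that followed each chamber cycle. The Air Drinking group (11 arrays) had the same drinking sessions but air and saline. The CIE NonDrinking group (12 arrays) had vapor and injected ethanol but only water to drink, and the Air NonDrinking group (12 arrays) was never given ethanol. Tissue was taken on the fifth drinking day of the fourth cycle, before that day's session, and each array carried the RNA of a separately numbered mouse. Nondrinkers differ from drinkers in the baseline weeks as well as in the later sessions, so that the drinking factor covers both. The paper also states that drinkers had gone without ethanol for a shorter time at sacrifice than nondrinkers. Time since the last ethanol therefore cannot be told apart from drinking here.

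The medial prefrontal cortex directs goal-seeking and restrains habitual responding, and it is among the regions most studied in alcohol dependence. Its neurons lie in layers, with intratelencephalic cells that express Cux2, Rorb and Rasgrf2 above, deep projection neurons below them, and a thin layer 6b with Ccn2 and Cplx3 next to the white matter. A positive interaction means that CIE mice stood higher relative to air mice among drinkers than among nondrinkers, and a negative one that they stood lower.

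Values were log2 signals, with array medians between 6.07 and 6.14, so that genes near or below 6 were no brighter than the typical probeset. As a check of the tissue, 15 cortical projection neuron genes had a median percentile of 89.0 among all probesets in the PFC, against 92.2 (HPC), 75.2 (CeA), 70.7 (NAC) and 55.9 (BNST). Some arrays stood apart in markers of neighbouring tissue. The mean level of 18 striatal projection neuron genes was above 8.2 on 18 of the 47 arrays, with a gap between 8.06 and 8.29, and the CIE Drinking group held 4 of them, Air Drinking 1, CIE NonDrinking 6 and Air NonDrinking 7. The mean level of 18 meningeal and fibroblast genes was above 6.6 on 9 arrays, with a gap between 6.46 and 6.85, and the CIE Drinking group held 3 of them, Air Drinking 0, CIE NonDrinking 2 and Air NonDrinking 4. Counts without either set, a comparison chosen after seeing the data, are given beside those of all arrays for each gene group. In bulk tissue, fewer cells of a type and less RNA per cell cannot be told apart.

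To show where the leading genes begin, the sequence around the transcription start of 2 genes with a negative and 2 with a positive interaction is given. Each run covers 250 bases before and 50 bases after the start in the RefSeq annotation of GRCm38.p6, 5′ to 3′ on the strand of the gene, all of them minus. The windows are chr2:172043417-172043716 for Cbln4, which encodes a secreted synapse organizer, chr2:79456587-79456886 for Neurod1, a transcription factor of excitatory neurons, chr9:57606232-57606531 for Cplx3, a complexin of layer 6b neurons, and chr10:59951721-59952020 for Ddit4, an inhibitor of mTORC1 that responds to stress and glucocorticoids. Capitals mark matches on either strand to the CCAAT box (CCAAT), the GC box (GGGCGG), the CAGNTG form of the E-box (N being any base) and the TATA box (TATAAA). Other forms of the E-box and of the TATA box were neither marked nor counted. Below, E-box means the CAGNTG form and TATA box the exact letters TATAAA. The 2 GC boxes of Cbln4 share a base and no other matches overlap.
Cbln4: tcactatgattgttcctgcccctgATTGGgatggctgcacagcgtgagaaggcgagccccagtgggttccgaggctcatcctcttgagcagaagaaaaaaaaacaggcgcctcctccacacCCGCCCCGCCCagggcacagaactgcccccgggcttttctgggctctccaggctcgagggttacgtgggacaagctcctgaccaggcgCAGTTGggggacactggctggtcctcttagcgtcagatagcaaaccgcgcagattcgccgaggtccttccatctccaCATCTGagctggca
Neurod1: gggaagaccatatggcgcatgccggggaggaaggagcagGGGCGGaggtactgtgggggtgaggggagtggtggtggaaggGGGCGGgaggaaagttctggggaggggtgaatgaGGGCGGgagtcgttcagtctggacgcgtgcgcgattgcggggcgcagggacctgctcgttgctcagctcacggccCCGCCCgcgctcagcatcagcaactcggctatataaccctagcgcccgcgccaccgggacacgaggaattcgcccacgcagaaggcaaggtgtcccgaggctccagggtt
Cplx3: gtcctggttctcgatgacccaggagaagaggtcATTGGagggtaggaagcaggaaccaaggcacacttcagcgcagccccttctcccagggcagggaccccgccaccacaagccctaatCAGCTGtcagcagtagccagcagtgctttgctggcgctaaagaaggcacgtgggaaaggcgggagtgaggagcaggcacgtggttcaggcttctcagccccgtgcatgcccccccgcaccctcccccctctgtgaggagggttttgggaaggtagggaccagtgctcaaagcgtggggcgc
Ddit4: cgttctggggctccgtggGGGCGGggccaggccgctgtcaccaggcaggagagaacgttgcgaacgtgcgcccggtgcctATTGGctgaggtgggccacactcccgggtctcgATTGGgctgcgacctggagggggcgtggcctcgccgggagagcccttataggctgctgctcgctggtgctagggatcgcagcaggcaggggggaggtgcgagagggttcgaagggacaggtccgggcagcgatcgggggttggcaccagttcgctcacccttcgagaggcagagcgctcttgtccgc
The Cbln4 window held 1 CCAAT box, 2 GC boxes and 2 E-boxes, that of Neurod1 held 4 GC boxes, that of Cplx3 held 1 CCAAT box and 1 E-box, and that of Ddit4 held 2 CCAAT boxes and 1 GC box. The exact letters TATAAA were in none of the 4 windows, which does not exclude other forms of the TATA box. Among all 32851 windows of this length, 37.4% held a CCAAT box, 35.7% a GC box, 51.4% an E-box and 13.6% a TATA box. None of the motifs as counted here was shared by the 4 genes.

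Vapor and drinking interacted in 1315 probesets by LIMMA at an adjusted p of 0.01 or less, which is 2.92% of all probesets tested. Of these, 837 were negative (1.86%) and 478 positive (1.06%). When each gene was represented by its brightest probeset, 553 of 18193 genes passed (3.04%), with 323 negative (1.78%) and 230 positive (1.26%). The median size of the interaction among the 1315 probesets was 0.39 on the log2 scale, against 0.08 over all probesets, where the median standard error was 0.08. Without the 18 arrays of high striatal marker level, 145 probesets passed, of which 135 were among the 1315. Without the 9 arrays of high meningeal marker level, 276 passed, of which 265 were among the 1315. In either case all 1315 estimates kept their sign and their median size was 0.39 and 0.37 on the log2 scale, while the median standard error over all probesets widened to 0.10 and 0.09. Of the 77 named genes that passed, 16 still did without the arrays of high striatal marker level and 27 without those of high meningeal marker level. Their estimates stayed within 1.5 times those of all arrays in 77 and 76 genes, the exception being Id3 (0.36 without the arrays of high meningeal marker level). The 1315 probesets and the 77 genes were chosen on arrays that these fits share. Their kept sign and size are therefore a description and not a test.

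The estimates of the vapor effect mostly crossed between drinkers and nondrinkers, while few genes passed the threshold in both. All 323 genes with a negative interaction were lower in CIE than in air mice among drinkers and higher in CIE than in air mice among nondrinkers, and 227 of the 230 genes with a positive one ran the opposite way in each. Across all 18193 genes, the estimates had opposite signs in 9492. Vapor itself passed the threshold in 840 probesets among drinkers (1.87%) and in 569 among nondrinkers (1.26%), comparisons that share no array. They had 44 probesets in common, or 5.24% of the first list and 7.73% of the second, and 26 of these moved in opposite directions. Most of the genes that passed for the interaction had therefore not passed in both simple comparisons. Of the 553 genes, 218 passed among drinkers, where 2.16% of all genes did, 77 among nondrinkers, where 0.77% did, and 270 in neither.

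**Figure D1:**
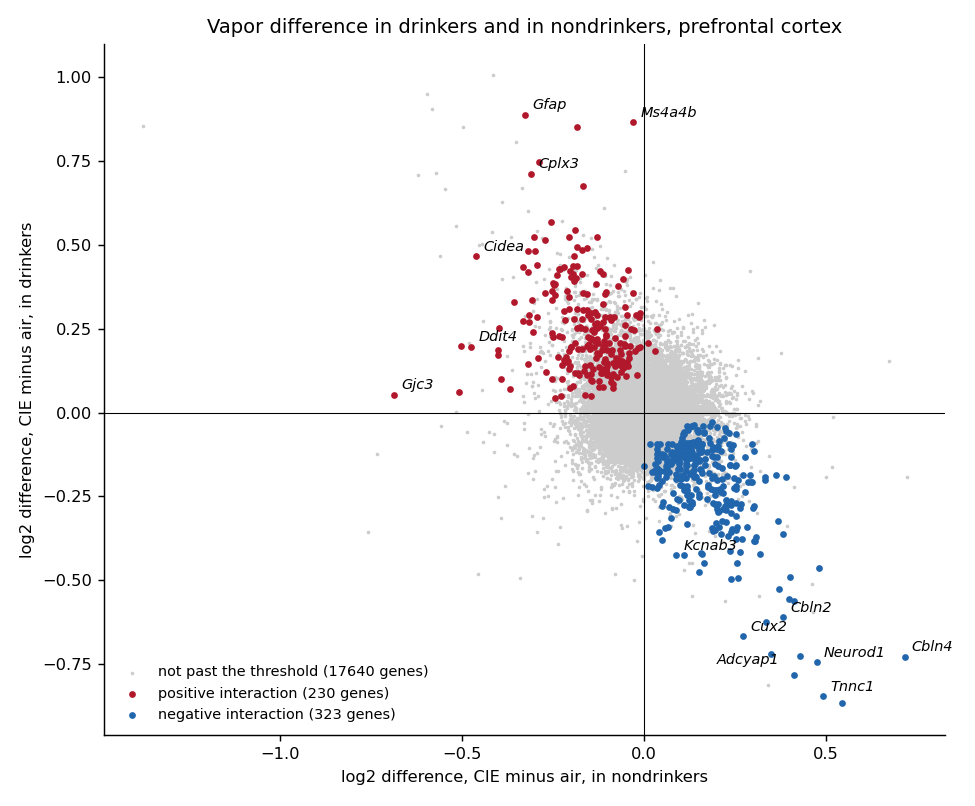
Vapor difference (CIE minus air, log2) in drinkers on the vertical axis and in nondrinkers on the horizontal axis, 1 point for each of 18193 genes, with the 230 genes of positive and the 323 genes of negative interaction at an adjusted p of 0.01 or less in color. Nearly all colored genes lie to the upper left or the lower right, which the interaction selects for, with Cbln4 farthest to the lower right among them and Gfap uppermost.

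In these genes the groups with both ethanol treatments or neither were about as close to each other as the groups with only vapor or only drinking. The median absolute difference between CIE Drinking and Air NonDrinking mice was 0.054 on the log2 scale over the 553 genes and 0.065 over all genes. That between CIE NonDrinking and Air Drinking mice was 0.055 over the 553 genes and 0.043 over all genes. The interaction contrast favors such genes, so that this is a description of the 553 and not a test.

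Cerebellins are secreted proteins of the C1q family that link presynaptic neurexins to postsynaptic receptors. Of them, Cbln4 had the most negative interaction among the genes that passed. Cbln4 had signals of 4.98 to 5.87 (median 5.41) in CIE Drinking mice and 5.67 to 6.73 (median 6.09) in Air Drinking mice. Among nondrinkers the order turned, with 5.27 to 6.89 (median 6.24) in CIE NonDrinking and 4.59 to 6.10 (median 5.28) in Air NonDrinking mice. The ranges overlapped in both pairs, yet all 12 CIE Drinking arrays lay below the mean of the Air Drinking arrays and 10 of 12 CIE NonDrinking arrays above the mean of Air NonDrinking arrays. Its interaction was -1.44 ± 0.24 on the log2 scale (SE, adjusted p = 0.00015), made of a vapor difference of -0.73 ± 0.17 among drinkers (adjusted p = 0.0059) and one of 0.72 ± 0.16 among nondrinkers (adjusted p = 0.0072). Without the arrays of high striatal marker level it was -1.19 with an adjusted p of 0.044, and without those of high meningeal marker level -1.46 with an adjusted p of 0.0030.

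Cbln2, on chromosome 18, was the gene with the smallest adjusted p among those named. It ranged from 8.31 to 8.72 (median 8.50) in CIE Drinking and from 8.87 to 9.47 (median 9.04) in Air Drinking mice, with no overlap. In nondrinkers it ranged from 8.60 to 9.40 (median 8.98) after CIE and from 8.10 to 8.95 (median 8.68) after air. The interaction was -0.99 ± 0.13 (SE, adjusted p = 6.02e-06), and it stayed past the threshold without the arrays of high striatal (-1.04, adjusted p = 0.00164) or high meningeal (-0.86, adjusted p = 0.000785) marker level. C1ql3, a relative that organizes excitatory synapses, had an interaction of -0.38 ± 0.09 (adjusted p = 0.0048). These 3 were the only genes to pass among 18 measured genes of the cerebellin list, where 1.78% of all genes passed as negative. The list holds cerebellins, neurexins, neuroligins and their partners, and 9 of the 18 estimates lay below 0 with a median of 0.02, against 0.01 over all genes. Cbln1 (0.17, adjusted p = 0.37) and Cbln3 (0.08, adjusted p = 0.64) did not pass. C1ql3 missed the threshold without the arrays of high striatal (-0.41, adjusted p = 0.0385) or high meningeal (-0.29, adjusted p = 0.0897) marker level.

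**Figure D2:**
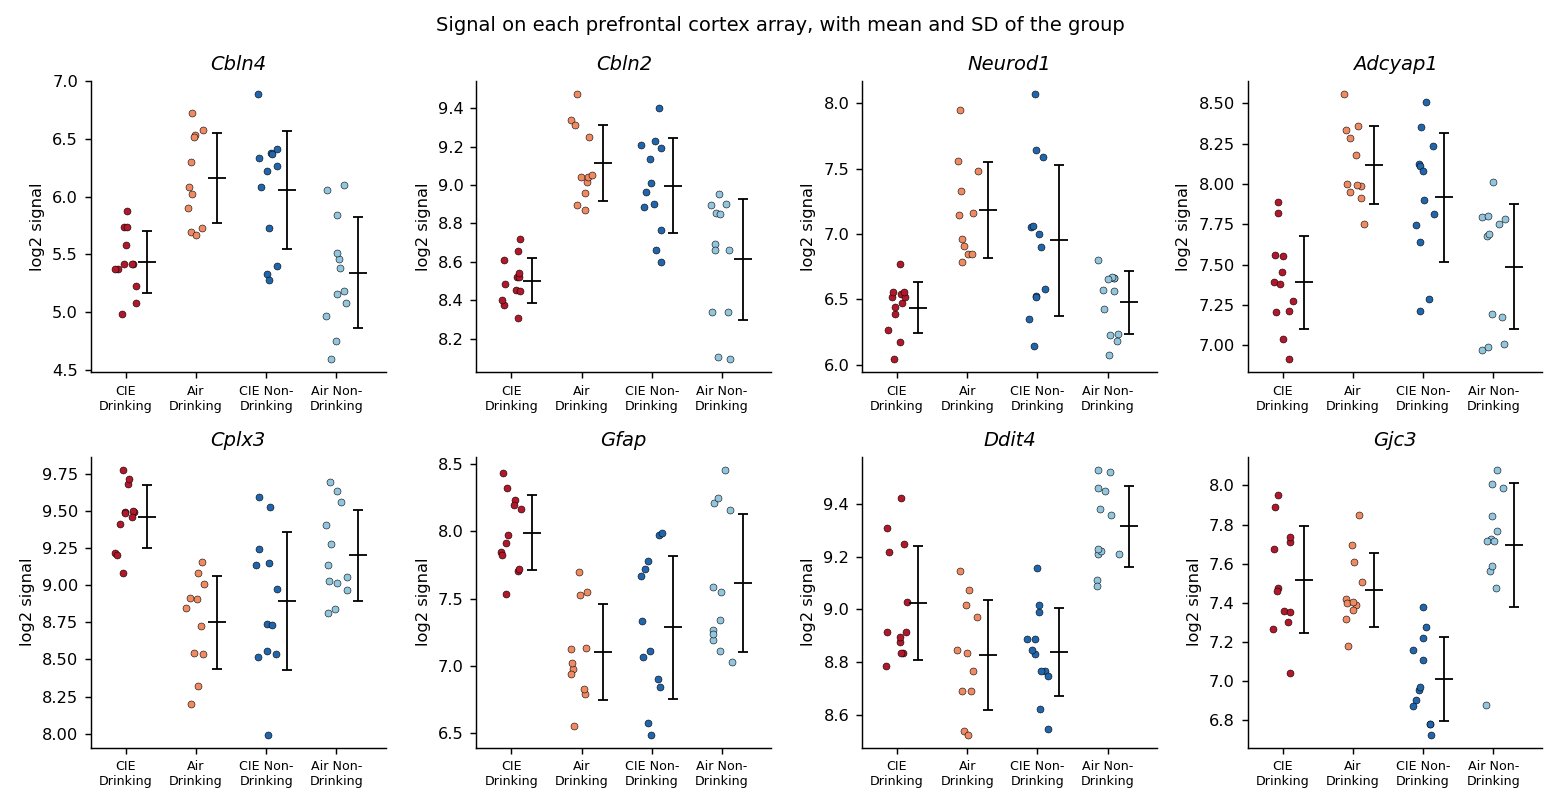
Log2 signal of 8 genes on each of the 47 PFC arrays in the 4 groups, with the mean and SD of each group to the right of its points. For Cbln4 and Cbln2 the CIE Drinking arrays sit low with the Air NonDrinking arrays, while for Cplx3 and Gfap they sit high, and Gjc3 is lowest in CIE NonDrinking mice.

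Bok and Mapk6 crossed in the same sense as Cbln4 and Cbln2. Bok, a member of the Bcl-2 family, ranged from 8.68 to 9.01 (median 8.86) in CIE Drinking and from 8.998 to 9.25 (median 9.10) in Air Drinking mice, and from 8.73 to 9.23 (median 9.06) in CIE NonDrinking and 8.47 to 9.01 (median 8.78) in Air NonDrinking mice. Its interaction was -0.52 ± 0.07 (SE, adjusted p = 1.72e-05). Mapk6, an atypical MAP kinase, had an interaction of -0.51 ± 0.07 (adjusted p = 1.04e-05), with vapor differences of -0.27 among drinkers and 0.24 among nondrinkers, but its 3 other probesets lay between -0.12 and 0.03 and none passed. Cidea, a lipid droplet protein, and Slc12a4, a potassium chloride cotransporter, crossed the other way, with interactions of 0.93 ± 0.15 (adjusted p = 0.000162) and 0.46 ± 0.07 (adjusted p = 3.13e-05). Slc12a4 ranged from 6.95 to 7.33 (median 7.13) in CIE Drinking and 6.79 to 7.05 (median 6.87) in Air Drinking mice, against 6.82 to 7.17 (median 6.99) in CIE NonDrinking and 6.99 to 7.41 (median 7.23) in Air NonDrinking mice. For Slc12a4 and Mapk6, each of the 12 CIE Drinking and 12 CIE NonDrinking arrays deviated from the mean of its air group in the direction of the group difference. Without the arrays of high striatal marker level Bok and Mapk6 still passed for the interaction, and Cidea (0.94, adjusted p = 0.0112) and Slc12a4 (0.33, adjusted p = 0.0343) did not, while all 4 passed without those of high meningeal marker level. By their brightest probesets, 12 genes in all passed in both vapor comparisons with opposite signs, the others being Asap2, Map9, Nrsn1, Pdzd8, Spcs3 and Zdbf2. None of the probesets passed in both comparisons with opposite signs without the arrays of high striatal marker level, and 2 did so without those of high meningeal marker level.

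The other 10 of the 12 most negative interactions included a transcription factor, a peptide and a pair of genes known from muscle. Neurod1 ranged from 6.04 to 6.77 (median 6.49) in CIE Drinking and from 6.79 to 7.95 (median 7.15) in Air Drinking mice, which did not overlap, and from 6.14 to 8.07 (median 6.95) in CIE NonDrinking and 6.07 to 6.80 (median 6.57) in Air NonDrinking mice. Its interaction was -1.22 ± 0.21 (SE, adjusted p = 0.000298), and its other probeset passed at -1.39. Adcyap1, which encodes the stress-related peptide PACAP, had 6.92 to 7.89 (median 7.39) in CIE Drinking and 7.75 to 8.56 (median 8.001) in Air Drinking mice, and 7.21 to 8.51 (median 7.99) in CIE NonDrinking and 6.97 to 8.01 (median 7.68) in Air NonDrinking mice. The 12 CIE Drinking arrays were all below the Air Drinking mean, and its interaction was -1.16 ± 0.19 (adjusted p = 0.000144), although its other probeset, at -0.49, did not pass. Ptgfrn, a tetraspanin partner, reached -1.20 ± 0.24 (adjusted p = 0.0012), and the secreted Tafa2 -0.98 ± 0.19 (adjusted p = 0.0011). Tnnc1 and Tcap, known as troponin and titin-binding proteins of striated muscle, had interactions of -1.34 ± 0.28 (adjusted p = 0.0018) and -0.96 ± 0.20 (adjusted p = 0.0020). Ddit4l, a paralog of Ddit4, reached -0.95 ± 0.20 (adjusted p = 0.0023). Gm12371, Lemd1 and Gm2102 completed the 12 most negative with -1.41, -1.07 and -0.94, the first and second of them at signals of at most 6.17 on every array. Neurod1, Ptgfrn and Adcyap1 still passed without either set of arrays and Tafa2 without those of high striatal marker level, whereas without them Tnnc1 had -0.90 (adjusted p = 0.194), Tcap -0.72 (adjusted p = 0.127) and Lemd1 -0.93 (adjusted p = 0.0864).

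The most positive interactions included an astrocyte, an epithelial and an interferon-induced gene. Gfap, the intermediate filament of astrocytes, ranged from 7.53 to 8.43 (median 7.95) in CIE Drinking and from 6.55 to 7.69 (median 7.02) in Air Drinking mice, against 6.49 to 7.99 (median 7.22) in CIE NonDrinking and 7.02 to 8.46 (median 7.44) in Air NonDrinking mice. The drinkers were nearly separated and the nondrinkers largely overlapped, with an interaction of 1.22 ± 0.24 (SE, adjusted p = 0.00116) and a vapor difference of 0.89 among drinkers (adjusted p = 0.0012) and -0.33 among nondrinkers (adjusted p = 0.27). Both of its other probesets passed, at 0.63 and 0.83. Without the arrays of high meningeal marker level Gfap had an interaction of 0.95 and an adjusted p of 0.0228. Ecrg4, a secreted peptide precursor that is abundant in choroid plexus, had an interaction of 1.04 ± 0.20 (adjusted p = 0.000842), and Ifi27l2a, an interferon-induced gene, one of 1.03 ± 0.20 (adjusted p = 0.0011). Tnmd, a membrane protein known from tendon, ranged from 7.14 to 7.82 (median 7.68) in CIE Drinking and 6.34 to 7.27 (median 7.10) in Air Drinking mice, and from 6.71 to 7.51 (median 7.05) in CIE NonDrinking and 6.95 to 7.79 (median 7.26) in Air NonDrinking mice. All 12 CIE Drinking arrays were above the Air Drinking mean for Tnmd, whose interaction was 0.84 ± 0.14 (adjusted p = 0.000224). Ms4a4b (0.89), Klk6 (0.80), Ly6g6e (0.78) and Ripk4 (0.78) also passed, with adjusted p between 0.00031 and 0.0036. Of them, Ms4a4b and Ripk4 had signals below the array medians on every array. Without the arrays of high striatal marker level none of these 4 did, at adjusted p of 0.023 to 0.0711, while Gfap, Ecrg4, Ifi27l2a and Tnmd did. Without those of high meningeal marker level Tnmd and Ripk4 did.

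Genes of the upper-layer list lay mostly on the negative side and those of the layer 6b list mostly on the positive side. In level the upper-layer list did not set the PFC apart from the other regions. Its median percentile among all probesets was 76.05 in the PFC, against 79.48 (NAC), 78.58 (CeA), 76.63 (BNST) and 72.91 (HPC). Of 17 measured upper-layer genes, 3 passed as negative, where 1.78% of all genes did, and 0 as positive, 13 of 17 estimates lay below 0, and the median was -0.17 (all genes: 0.01). Cux2, a transcription factor of upper-layer neurons, ranged from 7.81 to 8.50 (median 8.01) in CIE Drinking and 8.16 to 9.39 (median 8.71) in Air Drinking mice, and from 7.78 to 9.26 (median 8.07) in CIE NonDrinking and 7.4999 to 8.38 (median 8.03) in Air NonDrinking mice. Most of its difference was thus among drinkers, and its interaction was -0.94 ± 0.21 (SE, adjusted p = 0.0031), while its 2 other probesets, at -0.26 and -0.15, did not pass. Rasgrf2, a Ras exchange factor, and Lamp5, a membrane protein of cortical neurons, reached -0.68 ± 0.14 (adjusted p = 0.0022) and -0.59 ± 0.13 (adjusted p = 0.0037). Calb1 (-0.64, adjusted p = 0.018), Rspo1 (-0.56, adjusted p = 0.025) and Rorb (-0.47, adjusted p = 0.072) missed the threshold. With any probeset of a gene counted, 8 of the 17 genes had a passing one. None of the 3 calls held without the arrays of high striatal (Cux2 -1.05, adjusted p = 0.0195) or high meningeal (Cux2 -0.78, adjusted p = 0.0526) marker level, where adjusted p were 0.0185 to 0.0632 and 0.031 to 0.0526.

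Of 16 measured genes of the layer 6b and claustrum list, 5 passed as positive, where 1.26% of all genes did, and 0 as negative. Of the estimates, 12 were above 0, with a median of 0.31. The list shares Rorb with the upper-layer list and Drd1 with the striatal list. Cplx3 ranged from 9.08 to 9.78 (median 9.49) in CIE Drinking and from 8.201 to 9.15 (median 8.85) in Air Drinking mice, and from 7.99 to 9.59 (median 8.86) in CIE NonDrinking and 8.81 to 9.69 (median 9.10) in Air NonDrinking mice. The CIE Drinking arrays were all above the Air Drinking mean, and the interaction was 1.02 ± 0.19 (SE, adjusted p = 0.000609). Ccn2, a matricellular protein that marks layer 6b, had 11.67 to 12.18 (median 12.02) in CIE Drinking and 10.99 to 11.77 (median 11.41) in Air Drinking mice, and 10.79 to 12.09 (median 11.49) in CIE NonDrinking and 11.42 to 12.13 (median 11.67) in Air NonDrinking mice. Its interaction was 0.82 ± 0.16 (adjusted p = 0.00113). Pappa2, a protease that cleaves IGF-binding proteins, Moxd1, a monooxygenase, and Igfbp5, an IGF-binding protein, followed with 0.73 ± 0.17 (adjusted p = 0.0055), 0.66 ± 0.12 (adjusted p = 0.00066) and 0.65 ± 0.14 (adjusted p = 0.00234). Igfbp5 had 1 other probeset, at -0.16. Without the arrays of high striatal marker level Cplx3 (1.02, adjusted p = 0.0178) and Ccn2 (0.88, adjusted p = 0.0199) were as large but missed the threshold, as did the other 3, with Pappa2 at 0.49 (adjusted p = 0.238). Without those of high meningeal marker level Cplx3 and Moxd1 passed, and Igfbp5 had 0.48 (adjusted p = 0.0639). Among 17 deep-layer genes, Syt6 (0.45, adjusted p = 0.00042) and Ntsr1 (0.42, adjusted p = 0.0046), which mark layer 6, passed as positive and Parm1 (-0.53, adjusted p = 0.00019) as negative. Of these 3, Parm1 still passed without the arrays of high striatal marker level and all 3 without those of high meningeal marker level.

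**Figure D3:**
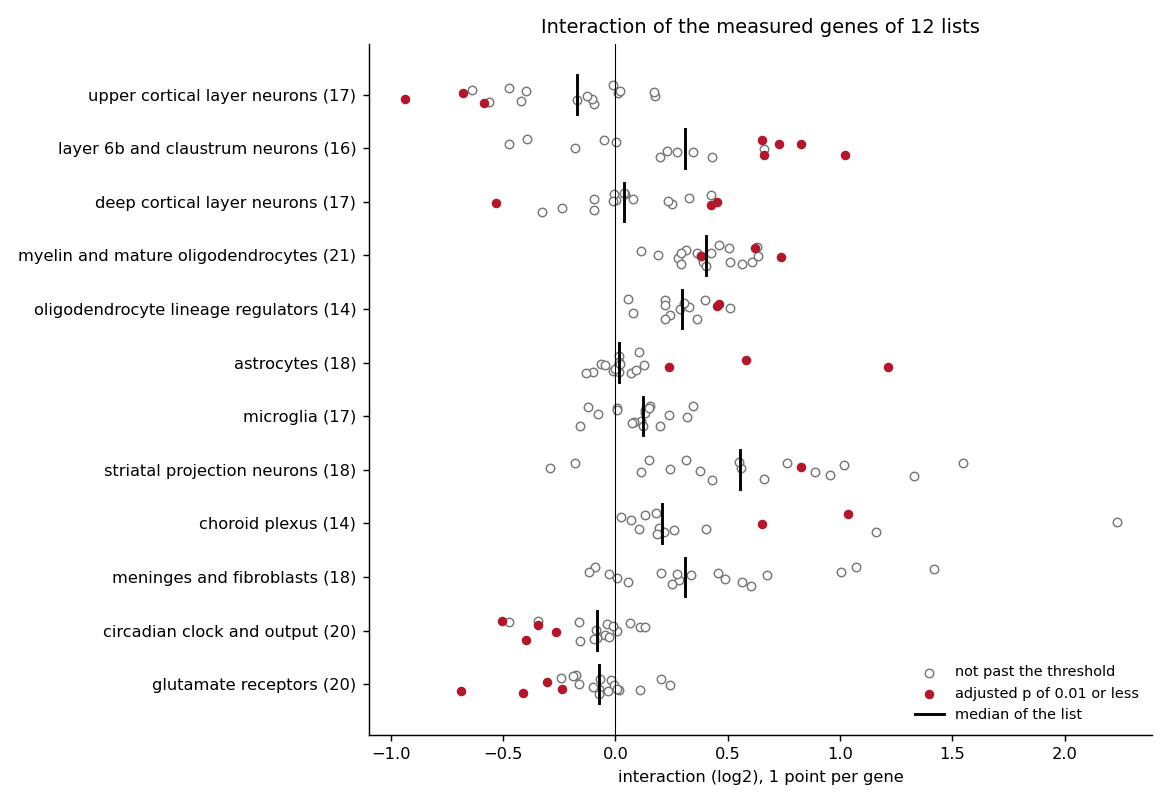
Interaction (log2) of each measured gene in 12 lists, 1 point per gene by its brightest probeset, filled where the adjusted p was 0.01 or less, with the median of the list as a bar and the number of measured genes in brackets. Myelin and oligodendrocyte genes all lie above 0, while upper-layer, clock and glutamate receptor genes lie mostly below it.

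Myelin genes shared a direction more than they passed the test. All 21 measured myelin genes had an estimate above 0, with a range of 0.11 to 0.74 and a median of 0.40. Of them 3 passed, where 1.26% of all genes passed as positive. Gjc3, a connexin of oligodendrocyte gap junctions, ranged from 7.04 to 7.95 (median 7.47) in CIE Drinking and 7.18 to 7.85 (median 7.41) in Air Drinking mice, and from 6.73 to 7.38 (median 6.96) in CIE NonDrinking and 6.88 to 8.08 (median 7.72) in Air NonDrinking mice. Here the difference lay among nondrinkers, at -0.69 (adjusted p = 6.9e-05), against 0.05 among drinkers (adjusted p = 0.83), and the interaction was 0.74 ± 0.14 (SE, adjusted p = 0.000912). Cd9, a tetraspanin of myelin, and Mobp, a structural myelin protein, reached 0.62 ± 0.13 (adjusted p = 0.0017) and 0.38 ± 0.09 (adjusted p = 0.0071), both with the larger difference among drinkers. Mog (0.63, adjusted p = 0.033), Opalin (0.61, adjusted p = 0.029) and Mbp (0.11, adjusted p = 0.22) did not pass. The oligodendrocyte lineage list also had all 14 estimates above 0, and Olig2 (0.46, adjusted p = 0.0060) and Sox8 (0.45, adjusted p = 0.0083), transcription factors of the lineage, passed. Among 18 astrocyte genes, Gfap, Id3 (0.58, adjusted p = 0.0023) and Cldn10 (0.24, adjusted p = 0.0047) passed while the median was 0.02. None of 17 microglial genes passed, with a median of 0.12. None of the 3 myelin and 2 lineage calls held without the arrays of high striatal (adjusted p 0.0109 to 0.0637) or high meningeal (adjusted p 0.0315 to 0.0834) marker level, with Gjc3 at 0.64 and 0.53. Of the 3 astrocyte genes, Gfap passed without the arrays of high striatal marker level and 0 without those of high meningeal marker level, where Id3 had 0.36 (adjusted p = 0.0715).

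The mean levels of these marker lists overlapped between groups and were not tested. The upper-layer mean was 8.12 to 8.47 (median 8.25) on CIE Drinking and 8.29 to 8.78 (median 8.44) on Air Drinking arrays, and 8.22 to 8.79 (median 8.32) on CIE NonDrinking and 8.11 to 8.52 (median 8.30) on Air NonDrinking arrays. The layer 6b mean was 8.41 to 8.63 (median 8.51) on CIE Drinking and 8.16 to 8.49 (median 8.31) on Air Drinking arrays, and 8.14 to 8.54 (median 8.33) on CIE NonDrinking and 8.24 to 8.65 (median 8.47) on Air NonDrinking arrays. The myelin mean was 9.96 to 10.43 (median 10.19) on CIE Drinking and 9.56 to 10.27 (median 9.91) on Air Drinking arrays, and 9.61 to 10.42 (median 9.97) on CIE NonDrinking and 9.72 to 10.48 (median 10.09) on Air NonDrinking arrays. Layer 6b and myelin means were thus high in CIE Drinking and Air NonDrinking mice and low in the other pair of groups, with overlap throughout, and the upper-layer mean was highest in Air Drinking mice.

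Markers of tissue next to the PFC had mostly positive estimates, few of which passed, where 1.26% of all genes passed as positive. Of 18 striatal genes, 16 had an estimate above 0 with a median of 0.55, and Ppp1r1b, a phosphatase inhibitor regulated by dopamine, passed (0.82 ± 0.21, adjusted p = 0.0086), while Drd2 (0.96, adjusted p = 0.26) and Penk (0.76, adjusted p = 0.23) did not. The striatal mean was 7.52 to 9.19 (median 7.78) on CIE Drinking and 7.39 to 9.07 (median 7.63) on Air Drinking arrays, and 7.48 to 9.03 (median 8.01) on CIE NonDrinking and 7.58 to 8.88 (median 8.36) on Air NonDrinking arrays. The groups overlapped, and the top of the Air Drinking range was 1 array, mouse 57, with the other 10 at 7.39 to 7.93. All 14 choroid plexus genes had an estimate above 0 with a median of 0.21, Ecrg4 and Calml4 (0.65, adjusted p = 0.0066) passed, and Ttr, the carrier protein that defines this tissue, had 2.23 with an adjusted p of 0.021. Their mean was 4.46 to 5.48 (median 4.87) on CIE Drinking and 4.42 to 4.82 (median 4.66) on Air Drinking arrays, and 4.41 to 4.73 (median 4.67) on CIE NonDrinking and 4.67 to 5.07 (median 4.84) on Air NonDrinking arrays, below the array medians on all of them. Of 18 meningeal genes, 15 had an estimate above 0 and 0 passed, and their mean was 5.78 to 7.28 (median 6.07) on CIE Drinking and 5.81 to 6.21 (median 5.97) on Air Drinking arrays, and 5.84 to 6.998 (median 5.97) on CIE NonDrinking and 5.74 to 7.35 (median 6.07) on Air NonDrinking arrays. Ecrg4 and Calml4 passed without the arrays of high striatal marker level and not without those of high meningeal marker level (adjusted p = 0.0144 and 0.0339), and Ppp1r1b passed in neither case (adjusted p = 0.0208 and 0.0163). The part of these markers in the other interactions was not tested beyond leaving out the arrays named above.

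**Figure D4:**
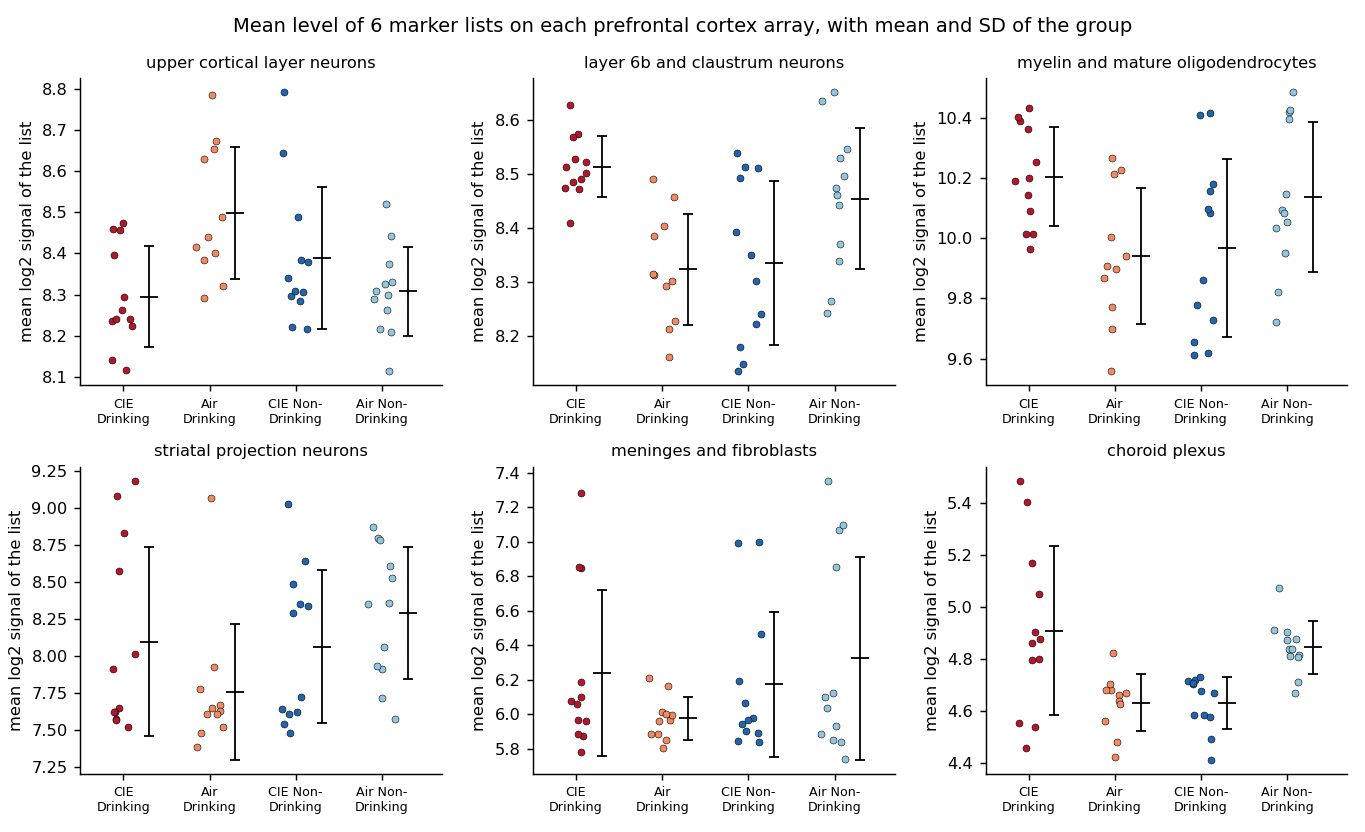
Mean log2 signal of 6 marker lists on each of the 47 PFC arrays in the 4 groups, with the mean and SD of each group. Layer 6b, myelin and choroid plexus levels are higher in CIE Drinking and Air NonDrinking than in Air Drinking and CIE NonDrinking arrays on average, with overlap, and the striatal and meningeal panels show the separate arrays above 8.2 and 6.6.

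Glutamate receptor genes that passed were all negative, while genes of vesicle release passed in both directions. Of 20 glutamate receptor genes, 4 passed, where 1.78% of all genes passed as negative, and 15 estimates lay below 0. Over all genes, 323 of the 553 that passed were negative. Grin3a, an NMDA receptor subunit, ranged from 6.97 to 7.41 (median 7.22) in CIE Drinking and 7.31 to 7.62 (median 7.43) in Air Drinking mice, and from 7.19 to 7.57 (median 7.37) in CIE NonDrinking and 6.87 to 7.45 (median 7.14) in Air NonDrinking mice. The lower CIE Drinking and the higher CIE NonDrinking values gave an interaction of -0.41 ± 0.08 (SE, adjusted p = 0.00115). Grm2, the presynaptic group II metabotropic receptor, reached -0.69 ± 0.15 (adjusted p = 0.0029), Grm7 -0.31 ± 0.07 (adjusted p = 0.0047) and the AMPA receptor subunit gene Gria4 -0.24 ± 0.05 (adjusted p = 0.0024). None of 15 GABA-A receptor and GABA synthesis genes passed by the brightest probeset, although 2 had another probeset that did. Bsn (-0.32, adjusted p = 0.0023), an active zone scaffold, and Syt4 (-0.26, adjusted p = 0.0017), a synaptotagmin, passed as negative among 25 genes of vesicle release, with Cplx3 and Rph3a (0.59, adjusted p = 0.0050) as positive. Homer1, a scaffold with an activity-induced short form, had -0.32 ± 0.05 (adjusted p = 3.79e-05), and 4 of its 5 other probesets passed in the same direction, between -0.74 and -0.32 across all 5. Homer1 passed without either set of arrays. None of the 4 glutamate receptor genes passed without the arrays of high striatal marker level (adjusted p 0.0715 to 0.197, with Gria4 at -0.18), and Grin3a alone did without those of high meningeal marker level. None of the 4 vesicle release genes passed without the arrays of high striatal marker level, and Cplx3 and Bsn did without those of high meningeal marker level.

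Among ion channels and signalling enzymes, Kcnab3, a beta subunit of potassium channels, ranged from 6.19 to 6.71 (median 6.58) in CIE Drinking and 6.79 to 7.23 (median 6.95) in Air Drinking mice with no overlap, and from 6.58 to 7.22 (median 6.87) in CIE NonDrinking and 6.53 to 7.06 (median 6.88) in Air NonDrinking mice. Its interaction of -0.52 ± 0.10 (SE, adjusted p = 0.00107) lay among drinkers, with a vapor difference of -0.43 there (adjusted p = 0.00028) and 0.09 in nondrinkers (adjusted p = 0.51). Kcnq3 (-0.18, adjusted p = 0.0049) was the other of 30 potassium channel genes to pass, and Cacna1g (-0.33, adjusted p = 0.0084) was the 1 calcium channel gene of 16. Over all genes 3.04% passed, 1.78% as negative, so that such small counts say little of channels as a group. Prkca, a protein kinase C, ranged from 11.07 to 11.26 (median 11.17) in CIE Drinking and 11.24 to 11.48 (median 11.40) in Air Drinking mice, and from 11.28 to 11.51 (median 11.35) in CIE NonDrinking and 11.04 to 11.36 (median 11.28) in Air NonDrinking mice. These narrow ranges gave -0.33 ± 0.05 (adjusted p = 4.69e-05), which stayed past the threshold without the arrays of high striatal (adjusted p = 0.00741) or meningeal (adjusted p = 0.00306) marker level. The phosphodiesterase Pde4d (-0.27, adjusted p = 0.0024) and the kinase Camkk2 (-0.23, adjusted p = 0.0041) were also negative, and the ryanodine receptor Ryr3 was positive (0.61, adjusted p = 0.0067), among 31 genes of cyclic nucleotide and calcium signalling. Crhr1, the receptor of corticotropin-releasing hormone, had -0.74 ± 0.15 (adjusted p = 0.0019), its second probeset passed at -0.50, and the peptide gene Nts had 0.61 ± 0.15 (adjusted p = 0.0077) at signals of 5.10 or less. Besides Prkca, 0 of the genes of this paragraph passed without the arrays of high striatal marker level (Kcnab3 -0.49, adjusted p = 0.0104), and Crhr1 and Ryr3 did without those of high meningeal marker level.

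Among clock genes the calls were all negative. Of 20 genes of the circadian clock and its output, 4 passed, all negative, where 1.78% of all genes passed as negative. Of the estimates, 16 lay below 0, with a median of -0.08. Bhlhe40, a repressor within the clock, had -0.51 ± 0.11 (SE, adjusted p = 0.0031), the output factor Hlf -0.40 ± 0.08 (adjusted p = 0.0018), Rora -0.34 ± 0.08 (adjusted p = 0.0047), and Arntl, which encodes BMAL1, -0.27 ± 0.06 (adjusted p = 0.0037). Arntl ranged from 8.64 to 8.83 (median 8.73) in CIE Drinking and 8.64 to 9.03 (median 8.76) in Air Drinking mice, and from 8.67 to 9.01 (median 8.82) in CIE NonDrinking and 8.44 to 8.83 (median 8.56) in Air NonDrinking mice, so that its difference was among nondrinkers. None of these 4 stayed past the threshold without the arrays of high striatal marker level, where Bhlhe40 was -0.60, Hlf -0.50, Rora -0.34 and Arntl -0.20 (adjusted p 0.0236 to 0.22), so that the first 3 were about as large or larger. Rora alone passed without those of high meningeal marker level. Ddit4 ranged from 8.79 to 9.42 (median 8.91) in CIE Drinking and 8.53 to 9.14 (median 8.83) in Air Drinking mice, and from 8.55 to 9.16 (median 8.84) in CIE NonDrinking and 9.09 to 9.53 (median 9.29) in Air NonDrinking mice. The Air NonDrinking mice, never given ethanol, stood above the other groups, and the interaction of 0.67 ± 0.11 (adjusted p = 0.000103) rested on a vapor difference of -0.47 in nondrinkers (adjusted p = 0.00020) more than on 0.20 in drinkers (adjusted p = 0.12). It was the 1 gene of 18 in the glucocorticoid list to pass, and it passed without either set of arrays. Of 30 immediate early genes, Gadd45g (0.39, adjusted p = 0.0054) and Jun (0.28, adjusted p = 0.0077) passed as positive and Homer1 as negative. Gadd45g and Jun did not pass without the arrays of high striatal (adjusted p = 0.0212 and 0.0814) or high meningeal (adjusted p = 0.0399 and 0.136) marker level.

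Housekeeping and metabolic lists are small beside the 3.04% of all genes that passed, so that a count of 0 says little of them. None of 43 respiratory chain, 30 proteasome, 29 heat shock and chaperone, 20 cholesterol synthesis and 28 ethanol metabolism and fatty acid oxidation genes passed by the brightest probeset, while 2 heat shock, 2 cholesterol synthesis and 1 ethanol metabolism gene had another probeset that did. Of 36 cytosolic ribosomal protein genes, 34 had an estimate above 0 with a median of 0.09, and Rps6 (0.24, adjusted p = 0.0053) and Rpl22 (0.20, adjusted p = 0.0060) passed. Tet1 (0.29, adjusted p = 0.0017), which oxidizes methylcytosine, Hdac5 (0.23, adjusted p = 0.0057) and Hdac9 (-0.45, adjusted p = 0.0088), which are histone deacetylases, were the 3 of 38 chromatin modifiers to pass. Stat2 (0.34, adjusted p = 0.00090) and Ifi27l2a passed among 27 interferon and inflammation genes, Hnrnpa1 (0.20, adjusted p = 0.0031) among 33 splicing factors and nuclear RNAs, and Nxph1 (-0.43, adjusted p = 0.00062), a neurexin ligand, among 18 interneuron genes. Of the genes of this paragraph, Ifi27l2a alone passed without the arrays of high striatal marker level, and Stat2 and Nxph1 alone without those of high meningeal marker level.

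To set the PFC against the other regions, the interaction in the PFC was compared with that in each of them in a joint fit of all 5 regions on 43893 probesets. The 2 interactions differed in 255 probesets for the NAC (0.581%), 148 for the HPC (0.337%), 889 for the BNST (2.03%) and 1600 for the CeA (3.65%). When each region was fitted alone at the same threshold, 1315 probesets passed for the interaction in the PFC by LIMMA and 0 in each other region. At an unadjusted p under 0.05 the shares were 21.9% in the PFC, 22.5% in the BNST, 11.6% (NAC), 11.1% (CeA) and 8.93% (HPC). With 1 variance shared by the regions in the joint fit, 1001 passed in the PFC, 1102 in the BNST, 606 in the CeA, 3 in the HPC and 1 in the NAC. A call in the PFC alone is thus not shown by the separate fits, and the differences between regions above are the test of it. That test also rests on the shared variance, which can be smaller or larger than the variance among PFC arrays. For the PFC interaction of Cux2 the adjusted p was 0.0031 in the PFC fit and 1.29e-06 in the joint fit. For that of Cplx3 it was 0.00061 and 0.062. Adjusted p of region differences are to be read with this limit.

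The upper-layer gene Cux2 had an interaction of -0.94 in the PFC, against 0.06 (NAC), 0.02 (HPC), 0.19 (BNST) and -0.19 (CeA), and the PFC differed from the NAC (-1.001 ± 0.21, SE, adjusted p = 0.0018), the HPC (-0.96 ± 0.22, adjusted p = 0.0070) and the BNST (-1.13 ± 0.21, adjusted p = 0.00019), but not past the threshold from the CeA (-0.75 ± 0.21, adjusted p = 0.013). Cbln4 was -1.44 in the PFC, against 0.63 (NAC), -0.61 (HPC), -0.03 (BNST) and 0.43 (CeA), and differed past the threshold from the NAC (-2.08 ± 0.33, adjusted p = 3.6e-05), the BNST (-1.42 ± 0.34, adjusted p = 0.0037) and the CeA (-1.87 ± 0.34, adjusted p = 7.9e-05). Ddit4 differed from the HPC (0.78 ± 0.18, adjusted p = 0.0087), the BNST (0.85 ± 0.18, adjusted p = 0.00082) and the CeA (0.75 ± 0.18, adjusted p = 0.0026). Mapk6 differed from the NAC and BNST and Adcyap1 from the BNST, while for Gfap and Cplx3 no difference passed. Neurod1 was -1.22 in the PFC and -1.61 in the NAC, and 1.32 in the CeA, from which the PFC differed by -2.54 ± 0.58 (adjusted p = 0.0014). In the joint fit its own interaction had adjusted p of 0.046 (PFC), 0.037 (NAC) and 0.046 (CeA), so that none passed there. Since the named genes were chosen for their interaction in the PFC or for a difference between regions, no count of them is read as a result.

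**Figure D5:**
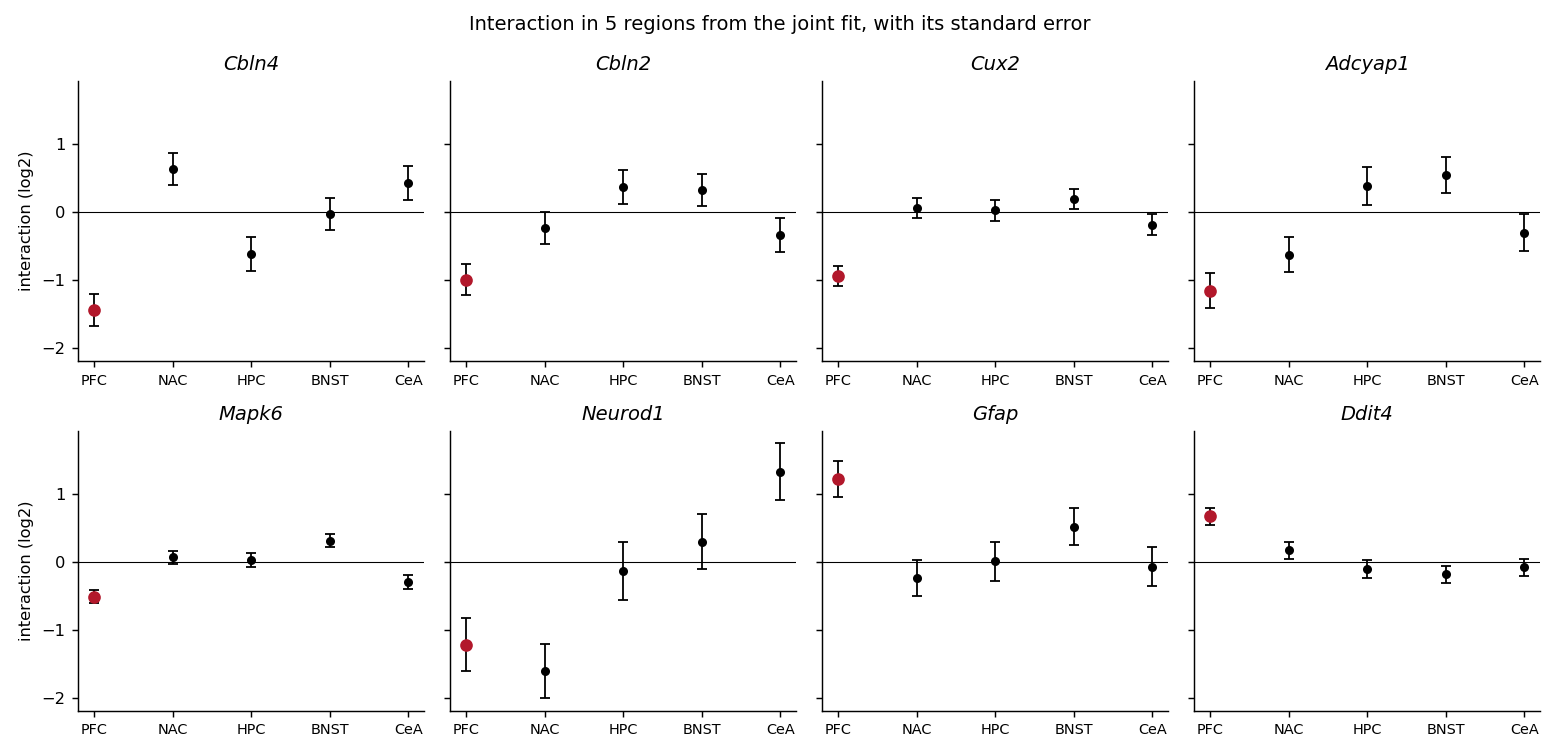
Interaction (log2) of 8 genes in the PFC (red) and in the NAC, HPC, BNST and CeA (black) from the joint fit of 5 regions, with the standard error as bars. Cux2 is at -0.94 in the PFC and within 0.19 of 0 in the other regions, and Neurod1 is negative in the PFC and NAC and positive in the CeA.

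The genes with the largest differences between regions were mostly ones whose interaction did not pass in the PFC itself. Thbs4, a secreted thrombospondin, was 1.35 in the PFC and -1.02 in the NAC (difference 2.37 ± 0.50, SE, adjusted p = 0.0020). For the HPC they were Cd109 (1.41 ± 0.32, adjusted p = 0.0071) and Teddm3 (-1.37 ± 0.31, adjusted p = 0.0081). For the BNST they were Gpr6 (3.81 ± 0.88, adjusted p = 0.0026) and Ido1 (2.68 ± 0.67, adjusted p = 0.0059), and for the CeA Neurod1 and Isl1 (3.02 ± 0.67, adjusted p = 0.0012). Gpr6, Ido1 and Isl1 are members of the striatal list. Gpr6 ranged from 4.12 to 7.98 (median 5.31) in CIE Drinking and 3.39 to 7.97 (median 4.52) in Air Drinking PFC, and from 3.51 to 7.63 (median 5.51) in CIE NonDrinking and 3.81 to 7.59 (median 6.69) in Air NonDrinking PFC. Each group thus spanned more of the scale than the groups differed, and the groups overlapped throughout.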

How the data were processed

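RNA from dissected tissue was hybridized to Affymetrix Mouse Genome arrays. The deposited values are log2 signals per probeset, which the authors made by RMA background correction, quantile normalization of each region separately and ComBat adjustment for hybridization batch, after they had removed low-quality and outlying arrays. Quantile normalization makes array medians nearly equal, so levels are relative within a region. The batches are not given in the sources used here, and their part in the values was not tested. The precision is limited by the number of arrays, 11 or 12 a group, each of a separately numbered mouse.

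LIMMA (limma 3.58.1 in R 4.3.3) fitted 4 group means to the 47 PFC arrays (43 residual degrees of freedom) on all 45037 probesets, with moderated tests and Benjamini-Hochberg adjustment over all probesets, and a threshold of 0.01 after the study's methods. All adjusted p-values in the text are from LIMMA. Probesets took their gene from the platform annotation, in which 34945 had 1 symbol, 932 several and 9160 none, and a gene was represented by its brightest probeset with 1 symbol (18193 genes). A joint fit of 5 regions tested the PFC interaction minus that of each other region on 43893 probesets, without a block for the mouse. The 37 gene lists held 914 entries, 832 of them measured. The members and lists were chosen with earlier results of these data known.

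Named genes were the 12 most positive and 12 most negative interactions past the threshold, up to 6 with opposite vapor effects, up to 4 past the threshold from each list and 2 from each region difference, 83 in all, of which 77 passed for the interaction. Other members are named as members of their list, after their values were seen. Alternatives were array quality weights, a filter on dim probesets, a trended robust prior, renewed quantile normalization, an adjusted p of 0.05, tests over genes alone, the mean of a gene's probesets, and leaving out each array. Scripts were tested on simulated data. Python 3.11.15 with pandas 2.3.3 and matplotlib 3.10.9 made the tables and plots.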

Additional observations from a re-analysis of the deposited data

Results flagged for a closer look

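The effect of vapor differed between drinkers and nondrinkers, by the test of the interaction itself, in 1315 PFC probesets. In 26 probesets vapor passed the threshold in drinkers and in nondrinkers with opposite signs. The interaction in the PFC differed from that in the NAC in 255 probesets, by the test of the difference between regions. It differed from that in the HPC in 148 probesets. For the BNST the count was 889 probesets. For the CeA it was 1600 probesets.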

How the results depend on the processing

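The count of 1315 interaction probesets of 45037 became 2607 with array quality weights and 3665 at an adjusted p of 0.05. When only 1 probeset a gene was tested, 608 of 18193 genes passed, against 553 with the adjustment over all probesets. The probeset count was 1627 of 22519 without dim probesets, 1436 with a trended robust prior and 1348 after renewed quantile normalization. It was between 968 and 1783 when each array was left out in turn, the lowest without the Air Drinking mouse 31 and the highest without the Air Drinking mouse 60. In alternatives chosen after seeing the data it was 145 without the 18 arrays of high striatal marker level, 276 without the 9 of high meningeal marker level and 1219 without the 3 of low quality weight. The cause of the lower counts was not tested. These fits had fewer arrays and lost unequal numbers from the 4 groups. Array number, group balance and the trait used to leave arrays out cannot be told apart in them. The 26 probesets with opposite vapor effects became 83 with weights, 185 at an adjusted p of 0.05, and 0, 2 and 14 without the arrays of high striatal level, high meningeal level and low weight. With weights, the PFC interaction differed in 1138 probesets for the NAC, 805 for the HPC and 4170 for the BNST. Of the 77 named genes that passed, 61 did not pass without the striatal-high arrays, 50 without the meningeal-high arrays, 15 with the mean of all probesets and 5 with weights, and none changed sign in the fits with other settings or without those sets of arrays (signs without single arrays were not recorded). These genes were chosen on the same arrays, so a kept sign is not a test. The median of 5 of the 37 lists changed sign with the mean of all probesets, namely cerebellins, postsynaptic scaffolds, astrocytes, monoamine and choline receptors, and splicing factors.

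No paired analysis was possible because each mouse number belonged to 1 treatment group. The numbers pair regions, and with the mouse as a replicate block the PFC interaction differed in 266 probesets for the NAC, 172 for the HPC, 942 for the BNST and 1638 for the CeA, at a consensus correlation of 0.0146. The labels hold 51 mouse numbers, more than 12 a group would give, and whether a number names the same mouse in every region was not tested.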
